A study of Mus musculus with 34 samples.

Results

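The effect of the R6/2 transgene was measured in the cortex of mice that also carried only 1 functional copy of Hdac4, the gene of histone deacetylase 4. The 9 Dble::R6/2 arrays were compared with the 8 Hdac4HET arrays, which together make up 17 of the 34 arrays of the series, chosen by genotype label alone. Dble::R6/2 mice carried the R6/2 transgene, a human HTT exon 1 fragment with an expanded CAG repeat, together with a heterozygous Hdac4 knock-out, whereas Hdac4HET mice carried the Hdac4 knock-out allele only. Both groups were labelled CBA X C57Bl/6, of both sexes and 15 weeks of age. The knock-out allele was made in 129S mice, so both groups may also carry 129S sequence near Hdac4. The arrays are numbered as replicates, and the labels do not state that each came from a separate animal, so p-values measure the spread between these samples. The transgene expresses a short fragment of the human protein and leaves both mouse Htt alleles in place, so the model is one of fragment expression. The R6/2 (n = 9) and WT (n = 8) arrays, with both Hdac4 copies intact, serve here only to ask whether the transgene effect differs between the Hdac4 backgrounds.

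Huntington's disease is caused by an expanded CAG repeat in HTT, which lengthens a polyglutamine tract and makes the protein and its N-terminal fragments aggregate. Neurons of the striatum and cortex lose the expression of receptors, channels, neuropeptides and activity-regulated genes before they are lost as cells, and R6/2 mice show this transcriptional change early and widely. HDAC4 is a class IIa histone deacetylase that moves between cytoplasm and nucleus and binds MEF2 factors, and it was reduced genetically in these mice because it is a candidate modifier of the disease.

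RNA was hybridised to Affymetrix expression arrays of the mouse genome, whose probe sets read mostly the 3′ end of transcripts. Levels are given on the log2 scale for each probe set as the study's authors processed them, so a difference of 1 is a doubling, and fold changes are back-transformed from log2 differences. Differences are Dble::R6/2 minus Hdac4HET with their SE, from limma, and adjusted p-values are Benjamini-Hochberg values over all 45037 probe sets with a threshold of 0.05. A gene is represented by its brightest probe set, and levels are not compared between genes because each probe set has its own affinity.

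Some arrays stood apart from their labels or their group. Xist, the X-inactivation RNA, and the Y-linked gene Eif2s3y went against the labelled sex on 9 of the 17 arrays, 4 from Dble::R6/2 and 5 from Hdac4HET mice. Wrong sex labels and exchanged samples cannot be told apart here, and an exchange would affect the genotype labels and with them every comparison. Read from Xist, there were 3 female and 6 male Dble::R6/2 mice and 2 female and 6 male Hdac4HET mice, a similar balance in both groups. Adjusting for the sex read from Xist gave 10260 probe sets called, against 10422 without it. Ttr, the transthyretin gene that marks choroid plexus, exceeded a level of 12 on 5 Dble::R6/2 arrays and 1 Hdac4HET array. Hdac4HET replicate 1 also held pituitary transcripts, with Prl at 9.22 and Gh at 10.33. Array medians lay between 5.47 and 5.52, and no pair of the 17 arrays correlated below 0.976. Markers of the labelled tissue were present in both groups. Camk2a had lowest, median and highest levels of 12.67, 12.81 and 12.95 in Dble::R6/2 and of 13.18, 13.34 and 13.45 in Hdac4HET cortex. The cortical neuron factor Tbr1 and the vesicular glutamate transporter Slc17a7 were expressed on every array, whereas the cerebellar granule cell gene Gabra6 stayed between 2.80 and 3.38 across both groups, near the lowest values of the arrays at 2.04.

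The targeted genes were examined first. Hdac4 was read by 3 probe sets, and its brightest ran from 7.32 to 7.80 (median 7.54) in Dble::R6/2 and from 7.47 to 7.74 (median 7.58) in Hdac4HET mice. The groups overlapped throughout, and none of the 3 probe sets passed the test, with differences of 0.00, -0.09 and -0.11. The same brightest probe set averaged 7.91 ± 0.19 in R6/2 and 8.06 ± 0.13 in WT cortex (SD, n = 9 and 8), and its contrast with the heterozygous groups was not tested. Mouse Htt, whose brightest probe set differed by 0.15 ± 0.08 (adjusted p = 0.22), did not pass the test with all arrays, and of the single arrays left out only Dble::R6/2 replicate 1 brought it past the threshold (0.20, adjusted p = 0.0374).

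The transgene changed a large part of the cortical transcriptome on the Hdac4 heterozygous background. Of the 45037 probe sets, 10422 (23.1%) were called, 5926 higher (13.2%) and 4496 lower (9.98%) in Dble::R6/2 cortex. With a fold change over 30% as a further condition, 4870 (10.8%) were called, 2369 higher (5.26%) and 2501 lower (5.55%). Collapsed to 18193 genes, 5460 (30%) were called, 3326 higher (18.3%) and 2134 lower (11.7%). The 18.3% and 11.7% serve as background for every gene group count below. Every Dble::R6/2 array lay above every Hdac4HET array for 802 genes (4.41%) and below every one for 794 (4.36%). Rises were more numerous, but fewer of them were large: 64 genes (0.352%) rose and 127 (0.698%) fell by more than 2-fold. In bulk cortex, fewer cells of a type and less RNA per cell cannot be told apart, and this holds for every neuronal and glial gene described here. The genes named by rule are those with the largest changes, the strongest members of each gene group and the histone deacetylases. Most genes added after their values were seen are marked as such. The gene groups were listed with earlier results of these data known, so their counts are descriptions.

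Several of the largest rises were in transcription factors of developing brain stem, sensory ganglia and mesenchyme that are low in adult cortex. On the Dble::R6/2 arrays Pou4f1 measured 6.93, 7.70 and 8.34 (lowest, median and highest), and on the Hdac4HET arrays it measured 4.05, 4.27 and 4.39. The groups lay far apart for this POU-domain factor of sensory neurons, with a difference of 3.33 ± 0.15 and a 10.1-fold rise (adjusted p = 2.03e-11). Onecut2, a cut-homeodomain factor of liver and neuronal development, had the strongest statistic of the whole comparison. Levels of Onecut2 were 7.86, 8.08 and 8.38 (lowest, median and highest) in Dble::R6/2, against 5.22, 5.59 and 5.74 in Hdac4HET mice. Its difference was 2.58 ± 0.09, or a 5.99-fold rise (adjusted p = 4.02e-13), with no overlap. Shox2, a homeobox factor of limb and pacemaker development, ran from 5.81 to 7.35 (median 6.61) in Dble::R6/2 and 3.81 to 4.35 (median 4.16) in Hdac4HET mice, and Twist1, a mesenchymal helix-loop-helix factor, from 6.08 to 7.62 (median 6.87) in Dble::R6/2 and 3.81 to 4.55 (median 4.36) in Hdac4HET mice. Both were separated between groups, Shox2 with a 5.51-fold and Twist1 with a 5.36-fold rise.

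Most other patterning factors did not pass the test. Of 25 measured factors of this kind, 7 rose (28%) and 1 fell (4%), beside 18.3% and 11.7% of all genes, and the median difference of the group was 0.05. The list includes Pou4f1, Onecut2, Shox2 and Twist1 and was written with earlier results of these data known, so its share of rises is no independent support. The other members that rose did so by 0.48 (Onecut1), 0.45 (Gata2) and 0.31 (Irx5), and Phox2a was the member that fell (-0.17); these names were added after their values were seen. The call of Phox2a was lost without any of 12 single arrays. Among 27 Hox genes, which set position along the body axis, 3 rose (11.1%), beside 18.3% of all genes. Levels of Hoxb5 on the 9 Dble::R6/2 arrays had a lowest value, a median and a highest value of 4.003, 5.05 and 6.12, against 3.31, 3.42 and 3.69 on the 8 Hdac4HET arrays. No overlap was seen for Hoxb5, which rose 2.83-fold (adjusted p = 2.81e-05), whereas Hoxc6 rose by 0.24 and Hoxd8 by 0.25, both with overlapping groups. The call of Hoxd8 was lost without any of 8 single arrays (adjusted p from 0.0538 to 0.07).

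Outside that class, several unrelated genes were among the 10 largest rises. For Plin4, the lowest, median and highest levels were 6.20, 7.89 and 8.62 in Dble::R6/2 and 4.64, 5.21 and 5.48 in Hdac4HET mice. Plin4 encodes a perilipin of lipid droplets, and its level in Dble::R6/2 replicate 1 was the lowest of that group by more than 1 log2 unit, yet still above every Hdac4HET array (a 6.04-fold rise, adjusted p = 1.06e-07). Cks2 and Cks1b, small subunits of cyclin-dependent kinases, ran from 6.98 to 8.07 (median 7.85) in Dble::R6/2 and 4.95 to 6.04 (median 5.67) in Hdac4HET mice, and from 7.75 to 8.63 (median 8.33) in Dble::R6/2 and 6.38 to 6.85 (median 6.55) in Hdac4HET mice. Cks2 rose 4.42-fold and Cks1b 3.35-fold, without overlap. Rgs13, a regulator of G-protein signalling, rose 4.39-fold and had a median of 5.21 in Dble::R6/2 and 3.05 in Hdac4HET mice. The predicted genes Gm2102 and Gm19439 rose 6.98-fold and 3.31-fold, the first with no overlap and the second with overlap. Gm19439 ran from 4.75 to 7.46 (median 6.96) in Dble::R6/2 and 3.72 to 5.95 (median 5.01) in Hdac4HET mice. Hira, a histone H3.3 chaperone, and Capn10, a calpain protease, were among the strongest statistics at 1.55 ± 0.09 and 1.38 ± 0.08, and neither showed overlap.

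The largest falls were of another kind. The lowest, median and highest Ighm levels were 5.01, 5.54 and 7.04 in Dble::R6/2 mice, against 6.80, 9.54 and 9.68 in Hdac4HET mice. Ighm, the immunoglobulin mu heavy chain, lay at 9.5% of the Hdac4HET level (adjusted p = 6.62e-07), and the only overlap was between Hdac4HET replicate 6, at 6.80, and Dble::R6/2 replicate 1, at 7.04. Levels of Abi3bp were 3.09, 3.33 and 3.83 (lowest, median and highest) in Dble::R6/2, against 5.37, 6.04 and 6.94 in Hdac4HET mice. For Abi3bp, which encodes an extracellular matrix protein, no overlap was seen and the level was 15.8% of the Hdac4HET level (adjusted p = 8.05e-10). Scn4b, the sodium channel beta subunit that shapes resurgent current, had the strongest statistic among the falls. Scn4b had lowest, median and highest levels of 7.04, 7.37 and 7.61 in Dble::R6/2 and of 9.07, 9.49 and 9.58 in Hdac4HET cortex. The groups were narrow and far apart, with a difference of -2.10 ± 0.09 (adjusted p = 3.52e-12). Nrep, a growth-associated neuronal protein, fell by 2.16, and Dlx1as, a transcript antisense to the interneuron factor Dlx1, by 2.08. Ryr1, the skeletal-type ryanodine receptor, fell by 2.03, and none of these 3 genes showed overlap.

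Other strong statistics came from genes of several functions. Rgs11, a G-protein regulator, lay at 30% of the Hdac4HET level, and Lamp5, a membrane protein of a class of cortical interneurons, at 30%. Ddit4l, an inhibitor of mTOR signalling, lay at 25.2% of the Hdac4HET level and Rspo1, a Wnt agonist, at 30.1%. All 4 had separated groups, as the plot of single genes shows for Lamp5 and Ddit4l.

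**Figure D1:**
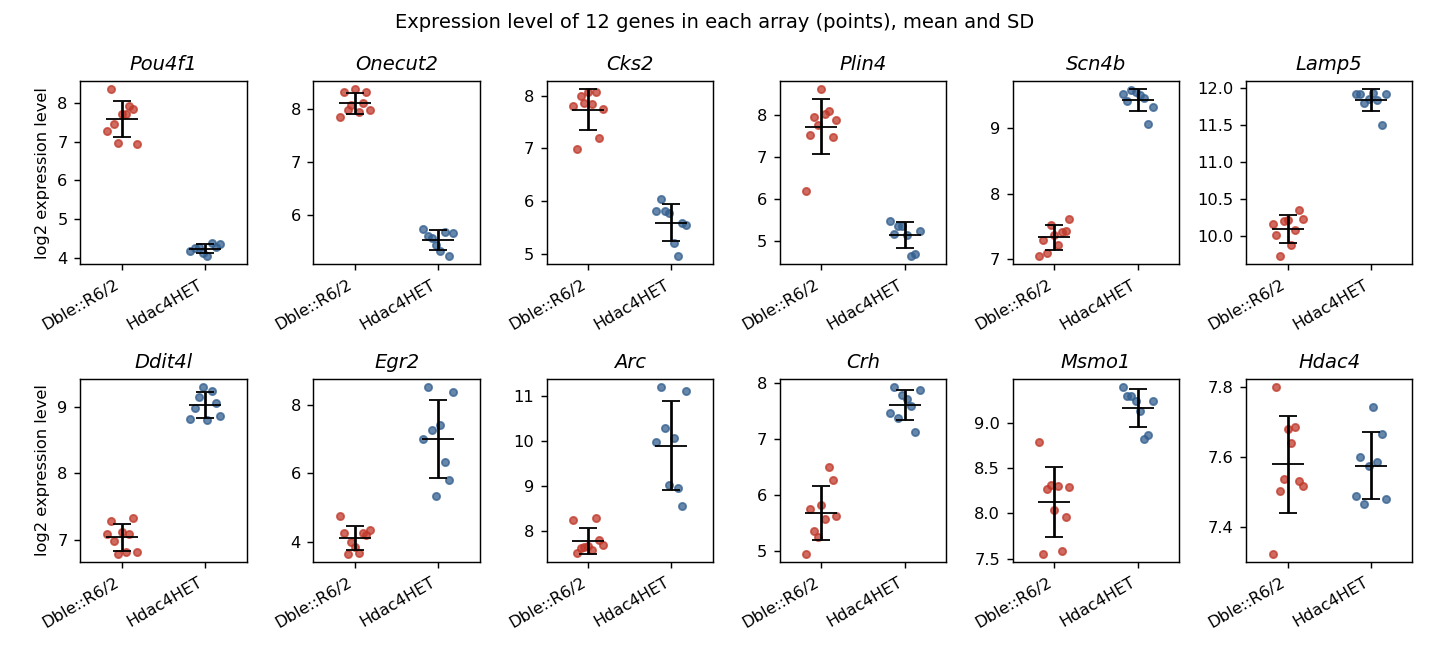
Expression level (log2) of 12 genes on each Dble::R6/2 (left, n = 9) and Hdac4HET (right, n = 8) array, with horizontal ticks for means and bars for SD; each panel has its own vertical scale, which does not start at 0. Points are separated for every gene shown except Hdac4, which both groups carry in 1 functional copy and whose panel spans only 7.32 to 7.80.

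Immediate early genes, which neurons switch on within minutes of synaptic activity, fell as a group. Of 27 measured, 22 fell (81.5%) and 1 rose, beside 11.7% and 18.3% of all genes, and their median difference was -0.92, against 0.02 for all genes. On the Dble::R6/2 arrays Egr2 measured 3.65, 4.20 and 4.76 (lowest, median and highest), and on the Hdac4HET arrays it measured 5.33, 7.12 and 8.51. The groups were separated for this zinc-finger factor, at 13.5% of the Hdac4HET level (adjusted p = 5.29e-06), although the Hdac4HET arrays alone spanned more than 3 log2 units. Arc, a synaptic protein that captures its own RNA, ran from 7.51 to 8.30 (median 7.66) in Dble::R6/2 and 8.57 to 11.20 (median 10.03) in Hdac4HET mice. Npas4, an activity-dependent factor that adjusts inhibition, ran from 4.999 to 6.17 (median 5.42) in Dble::R6/2 and 6.14 to 8.57 (median 7.73) in Hdac4HET mice. A single Dble::R6/2 array reached into the Hdac4HET range of Npas4, and none did for Arc. Levels of Nptx2 on the 9 Dble::R6/2 arrays had a lowest value, a median and a highest value of 5.92, 6.29 and 7.03, against 8.19, 8.35 and 8.48 on the 8 Hdac4HET arrays. Nptx2, a secreted pentraxin that clusters AMPA receptors, was tight in Hdac4HET mice and lay at 25.9% of the Hdac4HET level in Dble::R6/2 mice (adjusted p = 3.07e-09).

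Further members were examined after their values were seen. Klf10 fell by 1.75, Fos by 1.22, Egr1 by 1.01 and Bdnf, the neurotrophin, by 0.82, the last with a second probe set at -0.60 that missed the threshold (adjusted p = 0.0586). Jun was the member that rose, by 0.25, a call lost without Hdac4HET replicate 6 or Dble::R6/2 replicate 5 or 8 and without the arrays with high Ttr. Egr4 (-0.37), Nr4a3 (-0.30), Klf2 (-0.18) and Fosb (-0.06) did not pass. The mean level over the 27 genes spanned 7.58 to 8.00 on the Dble::R6/2 arrays and 8.16 to 9.25 on the Hdac4HET arrays, so the array means did not overlap and the Hdac4HET mice varied more. Without the 6 arrays with high Ttr, 15 members fell and the median was -0.77. Females alone by Xist (3 Dble::R6/2 and 2 Hdac4HET arrays) had a smaller median, -0.27, with 1 member called lower. Males alone had a median of -1.08, with 23 members called lower and 1 higher. Whether the effect differed between the sexes was not tested.

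Regulatory elements known to drive these genes were looked for in the 250 bases before each transcription start, taken from RefSeq on GRCm38.p6. Of 20 members with a promoter entry, the cAMP response element TGACGTCA, a palindrome and so the same on both strands, stood in 2 (10%, Dusp1 and Btg2), beside 1.77% of the 27025 genes with a promoter. The serum response element known as the CArG box, searched on both strands, stood in 1 (5%, Egr2), beside 1.62% of genes. A match is a description of letters and not of a bound site. The promoters of Egr2 (chr10:67537316-67537565, plus strand) and of Dusp1 (chr17:26508473-26508722, minus strand), a MAP kinase phosphatase that fell by 0.76, are shown because they hold the elements in members that fell, with the element in capitals.
Egr2: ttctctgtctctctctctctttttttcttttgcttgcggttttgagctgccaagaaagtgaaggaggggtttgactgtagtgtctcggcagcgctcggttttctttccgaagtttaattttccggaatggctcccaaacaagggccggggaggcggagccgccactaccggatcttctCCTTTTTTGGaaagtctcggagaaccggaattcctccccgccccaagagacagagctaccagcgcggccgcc
Dusp1: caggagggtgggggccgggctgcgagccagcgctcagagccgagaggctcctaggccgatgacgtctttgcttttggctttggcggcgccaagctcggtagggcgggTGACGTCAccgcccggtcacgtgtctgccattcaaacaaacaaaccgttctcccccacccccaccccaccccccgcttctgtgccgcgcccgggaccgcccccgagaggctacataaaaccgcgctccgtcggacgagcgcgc
Egr2 has 5 annotated promoters, and 4 of them hold a CArG box.

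Muscle-type genes and targets of MEF2 were included because class IIa deacetylases bind MEF2. Of 17 measured, 9 fell and none rose. For Myh7, the lowest, median and highest levels were 4.64, 5.24 and 5.79 in Dble::R6/2 and 6.82, 7.78 and 8.27 in Hdac4HET mice. Myh7, the slow cardiac myosin heavy chain, lay at 18.6% of the Hdac4HET level (adjusted p = 1.83e-08), and its groups were separated. Myl4, an atrial myosin light chain, lay at 30.1% of the Hdac4HET level without overlap, and Myl1, a fast-muscle light chain, at 43.5% with 5 of the 9 Dble::R6/2 arrays inside the Hdac4HET range. Myl1 ran from 3.55 to 4.77 (median 4.23) in Dble::R6/2 and 4.20 to 6.94 (median 5.34) in Hdac4HET mice. Nr4a1, an orphan nuclear receptor that is also an immediate early gene, lay at 52.9% of the Hdac4HET level. The MEF2 factors themselves moved less: Mef2c fell by 0.44 and Mef2d by 0.18, while Mef2a (0.19) and Mef2b (0.04) did not pass. These 4 were named after their values were seen, and the call of Mef2d was lost without any of 7 single arrays.

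Among the 11 histone deacetylases, 2 rose (18.2%) and 4 fell (36.4%), beside 18.3% and 11.7% of all genes. The lowest, median and highest Hdac2 levels were 10.11, 10.31 and 10.43 in Dble::R6/2 mice, against 9.90, 9.998 and 10.09 in Hdac4HET mice. Hdac2, a class I enzyme, rose by 0.30 with separated groups (adjusted p = 3.14e-04), and Hdac1, its class I partner in the same complexes, rose by 0.39 (adjusted p = 0.00944) with overlap. Hdac11, the class IV enzyme, fell by 0.33 (adjusted p = 3.69e-04). Of the class IIa relatives of Hdac4, Hdac7 fell by 0.27 (adjusted p = 0.00129), Hdac5 by 0.25 (adjusted p = 0.0446) and Hdac9 by 0.18 (adjusted p = 0.0402). The calls of Hdac5 and Hdac9 were lost when single arrays were left out, that of Hdac5 for any of 12 arrays and that of Hdac9 for any of 11, so 2 to 4 members fell with single arrays left out. Hdac3, Hdac6, Hdac8 and Hdac10 did not pass, with differences of -0.05, -0.0015, 0.19 and -0.13.

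Genes of inhibitory interneurons fell as a group. Of 27 interneuron and GABA synthesis genes, 22 fell (81.5%) and 1 rose, beside 11.7% and 18.3% of all genes, with a median of -0.71. Every Dble::R6/2 array lay below every Hdac4HET array for 14 of them, beside 4.36% of all genes. Crh had lowest, median and highest levels of 4.95, 5.62 and 6.51 in Dble::R6/2 and of 7.13, 7.65 and 7.93 in Hdac4HET cortex. Corticotropin-releasing hormone, a peptide of a group of interneurons in cortex, lay at 26.3% of the Hdac4HET level (adjusted p = 1.43e-07). Tac2, which encodes neurokinin B, ran from 4.51 to 5.54 (median 5.04) in Dble::R6/2 and 6.52 to 7.15 (median 6.83) in Hdac4HET mice, and Penk, the enkephalin precursor, from 7.82 to 8.61 (median 8.14) in Dble::R6/2 and 9.39 to 10.57 (median 9.78) in Hdac4HET mice. Both were separated between groups, at 28.2% and 33.3% of the Hdac4HET level.

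Peptide and calcium-binding genes of several interneuron classes fell, named here after their values were seen. Levels of Sst were 9.33, 9.61 and 9.82 (lowest, median and highest) in Dble::R6/2, against 10.80, 10.96 and 11.29 in Hdac4HET mice. Somatostatin fell by 1.41, Npy by 1.31, Vip by 1.04 and the parvalbumin gene Pvalb by 0.71, each without overlap. The GABA-synthesising enzymes Gad1 and Gad2 fell by 0.84 and 0.49. Fate factors of the lineage moved less or in the other direction: Lhx6 (-0.09) did not pass, Dlx1 fell by 0.27 and Dlx2 was the member that rose, by 0.69, with separated groups. The mean over the 27 genes spanned 7.55 to 7.79 on Dble::R6/2 and 8.30 to 8.53 on Hdac4HET arrays.

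Genes of cortical layers and of excitatory neurons fell too. Of 23 layer genes, 16 fell (69.6%) and 2 rose, with a median of -0.52. With single arrays left out, 13 to 15 layer genes fell. Without the arrays with high Ttr, 13 layer genes fell and 1 rose. On the Dble::R6/2 arrays Cplx3 measured 5.23, 5.80 and 6.23 (lowest, median and highest), and on the Hdac4HET arrays it measured 7.21, 7.49 and 7.83. Cplx3, a complexin of the deepest layer, lay at 31.3% of the Hdac4HET level (adjusted p = 6.26e-09), and the upper-layer factor Cux2 at 48.4% and the upper-layer gene Rasgrf2 at 53%, all without overlap. Crym and Lmo3, named after their values were seen, were the members that rose (0.50 and 0.45). The call of Crym was lost without the arrays with high Ttr (adjusted p = 0.212, limma). Of 12 excitatory neuron markers 7 fell and none rose, among them Nrn1, a plasticity-related surface protein (40.7% of the Hdac4HET level), and the kinase subunit Camk2a (69.5%). Of 15 pan-neuronal markers 9 fell and 2 rose, with smaller changes: the neurofilaments Nefm and Nefl lay at 60.3% and 70.2% of the Hdac4HET level, Tubb3, a neuronal tubulin, at 67.2%, and Uchl1, a deubiquitinase, rose by 0.42. Gap43, a growth cone protein named after its values were seen, was the other member that rose (0.34). Without the arrays with high Ttr, 4 pan-neuronal markers fell and 1 rose.

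Genes that mark striatal projection neurons but are also expressed in cortex showed the same direction. This list shares members with the interneuron list, among them Penk, given above, so the counts of these lists are not independent. Of 19 measured, 12 fell (63.2%) and none rose (median -0.49), and the defining dopamine receptors Drd1 (-0.27) and Drd2 (-0.29) were not among those that passed. Levels of Pdyn on the 9 Dble::R6/2 arrays had a lowest value, a median and a highest value of 4.83, 5.08 and 5.37, against 6.00, 6.54 and 6.66 on the 8 Hdac4HET arrays. Pdyn, the dynorphin precursor, lay at 38.2% of the Hdac4HET level (adjusted p = 2.91e-09). Arpp19, a regulator of protein phosphatase 2A, lay at 34.8% of the Hdac4HET level and Rgs4, a G-protein regulator, at 39.2%, both separated. Ppp1r1b, which encodes DARPP-32 and was named after its values were seen, fell by 1.22.

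Receptors, channels and release machinery fell in part. Of 29 glutamate receptor and postsynaptic genes, 14 fell (48.3%) and none rose. For Grm4, the lowest, median and highest levels were 5.86, 6.08 and 6.60 in Dble::R6/2 and 7.11, 7.25 and 7.69 in Hdac4HET mice. The metabotropic receptor Grm4 lay at 47.1% of the Hdac4HET level (adjusted p = 4.33e-07), and its relatives Grm2 and Grm3 at 58% and 55.7%, all separated between groups. Cacng3, an AMPA receptor auxiliary subunit, lay at 50.9% of the Hdac4HET level with overlap. Of 10 GABA receptor subunits 3 fell (30%) and 1 rose (10%), beside 11.7% and 18.3% of all genes. The lowest, median and highest Gabrd levels were 7.83, 8.02 and 8.39 in Dble::R6/2 mice, against 9.08, 9.26 and 9.59 in Hdac4HET mice. The delta subunit Gabrd, of extrasynaptic receptors, lay at 41.9% of the Hdac4HET level (adjusted p = 5.06e-09), while Gabrb2 fell by 0.52 and Gabrb1 rose by 0.18. Gabbr1 fell by 0.26 on its brightest probe set, but another of its probe sets was called in the opposite direction, and the mean of its probe sets moved by -0.03 (adjusted p = 0.72). The mean of the Gabrb1 probe sets moved by 0.06 (adjusted p = 0.499, limma), and no member rose when probe sets were averaged.

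Among the 42 genes of potassium channels, 54.8% were lower by the test (23 genes) and 1 was higher, with a median of -0.32. Levels of Kcnip2 were 8.17, 8.44 and 8.61 (lowest, median and highest) in Dble::R6/2, against 9.44, 9.71 and 9.93 in Hdac4HET mice. Kcnip2, which modulates A-type channels, lay at 42% of the Hdac4HET level (adjusted p = 4.11e-10). Kcnc1, a fast-spiking channel, lay at 53.5% of the Hdac4HET level, and Kcnn1, a calcium-activated channel, at 57.1%, both separated. Kcnj9, an inward rectifier, lay at 51.5% of the Hdac4HET level with a wide spread in Dble::R6/2 mice, of 7.58 to 10.09. Kcna5 was the member that rose (0.64). Of 26 sodium and calcium channel and pump genes 13 fell and 2 rose, the rises being the sodium channel subunits Scn3a (0.73), which is best known from immature neurons, and Scn3b (0.52); these 3 were named after their values were seen. Among 28 genes of synaptic vesicle release, 15 fell (53.6%) and none rose. Vamp1 had lowest, median and highest levels of 8.57, 8.88 and 8.98 in Dble::R6/2 and of 9.70, 9.96 and 10.14 in Hdac4HET cortex. Vamp1, a vesicle SNARE, lay at 45.1% of the Hdac4HET level (adjusted p = 4.15e-09), and Unc13a and Cplx2, which prime vesicles and clamp fusion, at 58.7% and 58.6%, with no overlap for any of the 3.

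Most genes of cholesterol synthesis fell. Of 20 measured genes, 15 fell (75%) and 1 rose, beside 11.7% and 18.3% of all genes, with a median of -0.66. Every Dble::R6/2 array lay below every Hdac4HET array for 12 of them, beside 4.36% of all genes. On the Dble::R6/2 arrays Idi1 measured 7.11, 7.53 and 8.13 (lowest, median and highest), and on the Hdac4HET arrays it measured 8.37, 8.63 and 8.96. The isomerase Idi1 lay at 47.4% of the Hdac4HET level (adjusted p = 9.88e-07). Msmo1, a sterol demethylase, ran from 7.56 to 8.78 (median 8.27) in Dble::R6/2 and 8.82 to 9.39 (median 9.24) in Hdac4HET mice, and Cyp51, another sterol demethylase, from 7.07 to 7.72 (median 7.23) in Dble::R6/2 and 7.90 to 8.40 (median 8.16) in Hdac4HET mice. Insig1, which retains the sterol sensor in the endoplasmic reticulum and is itself a target of SREBP, lay at 49.8% of the Hdac4HET level, and Srebf2, the gene of SREBP-2, fell by 0.72. All 5 were separated, and Lss, the lanosterol synthase, was the member that rose, by 0.31 (Srebf2 and Lss were named after their values were seen). Without the 6 arrays with high Ttr, 13 members fell and the median was -0.62.

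The sterol response element, searched as TCACNCCAC on both strands, stood in the promoter window of 1 of 16 members with an entry (6.25%), beside 1.22% of all 27025 genes. It was that of Hmgcs1, which makes HMG-CoA at the start of the pathway and fell by 0.70 without overlap. Its promoter (chr13:119690101-119690350, plus strand, GRCm38.p6) is given as the member of the group that holds this element, which is in capitals.
Hmgcs1: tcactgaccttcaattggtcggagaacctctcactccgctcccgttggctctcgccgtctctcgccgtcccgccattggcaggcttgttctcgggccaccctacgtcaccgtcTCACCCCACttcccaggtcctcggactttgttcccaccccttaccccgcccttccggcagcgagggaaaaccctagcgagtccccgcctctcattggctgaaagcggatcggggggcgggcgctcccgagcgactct

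Other groups rose. Among proteasome subunits, of 31 measured, 24 rose (77.4%) and none fell, with a median of 0.26. Levels of Psmd3 on the 9 Dble::R6/2 arrays had a lowest value, a median and a highest value of 9.97, 10.21 and 10.51, against 9.67, 9.80 and 9.88 on the 8 Hdac4HET arrays. Psmd3, of the regulatory lid, rose 1.35-fold with separated groups (adjusted p = 4.88e-05), which is the largest change in the list. Psmb3, a core subunit, rose by 0.43, the ATPase Psmc2 by 0.39 and the ubiquitin receptor Psmd4 by 0.34. The mean over all 31 subunits spanned 10.37 to 10.53 on Dble::R6/2 and 10.13 to 10.26 on Hdac4HET arrays, and these ranges did not overlap. Without the arrays with high Ttr, 17 subunits rose and the median was 0.30.

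Polycomb genes, which encode repressors of developmental genes, rose in 12 of 26 cases (46.2%) and fell in 1, with a median of 0.20. For Bmi1, the lowest, median and highest levels were 9.49, 9.92 and 10.05 in Dble::R6/2 and 9.15, 9.25 and 9.35 in Hdac4HET mice. Bmi1, a subunit of the first complex, rose 1.51-fold (adjusted p = 8.83e-06). Its chromobox partners Cbx8 and Cbx2 rose 1.56-fold and 1.55-fold, and Phf1, a partner of the second complex, rose 1.56-fold, all without overlap. Cbx6 was the member that fell (-0.19), and the methyltransferases Ezh2 (0.20) and Ezh1 (0.03) did not pass, as seen after their values were known.

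Interferon response and antigen presentation genes rose in 13 of 28 cases (46.4%) and none fell, with a median of 0.28. The lowest, median and highest Ifi27l2a levels were 5.58, 5.96 and 6.23 in Dble::R6/2 mice, against 3.76, 4.32 and 4.61 in Hdac4HET mice. This interferon-induced mitochondrial protein rose 3.11-fold (adjusted p = 4.68e-09). Ifit1, which binds foreign RNA, rose 2.29-fold, Usp18, which removes ISG15, 2.08-fold and Oasl2, a relative of the oligoadenylate synthetases, 1.74-fold. All 4 groups of values were separated. The rises were not shared by the antigen presentation genes B2m (-0.22), H2-K1 (0.19) and Tap1 (0.13), which did not pass and were named after their values were seen.

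Glucocorticoid-responsive genes rose in 9 of 20 cases (45%) and fell in 2 (10%), beside 18.3% and 11.7% of all genes (group median 0.21). Fkbp5 had lowest, median and highest levels of 8.14, 8.89 and 9.19 in Dble::R6/2 and of 7.46, 7.76 and 8.04 in Hdac4HET cortex. Fkbp5, a co-chaperone of the glucocorticoid receptor, rose 2.08-fold (adjusted p = 2.56e-06), Sult1a1, a sulfotransferase, 2.32-fold and Sgk1, a kinase, 1.78-fold. The receptor itself, Nr3c1, fell by 0.50 and was with Per1 (-0.62) the pair that fell, both named after their values were seen. Heat shock proteins and chaperones rose in 12 of 30 cases (40%) and fell in 5 (16.7%), beside the same shares of all genes. Only 7 rose without Hdac4HET replicate 6, as without the arrays with high Ttr. Levels of Hspb6 were 5.96, 6.24 and 6.61 (lowest, median and highest) in Dble::R6/2, against 5.12, 5.40 and 5.64 in Hdac4HET mice. Hspb6, a small heat shock protein, rose 1.81-fold, but the stress-inducible Hspa1b lay at 70.5% of the Hdac4HET level, the lens crystallin Cryab at 68.9% and Dnajb5 at 66.8%. Hspa1a (-0.33) and Hsph1 (-0.29), named after their values were seen, were the other members that fell. Genes of the integrated stress response rose in 6 of 20 cases (30%) and fell in 3 (15%), beside 18.3% and 11.7% of all genes. Ddit4, an mTOR inhibitor, lay at 0.57, the amino acid transporter Slc7a5 at 0.39 and the cystine transporter Slc7a11 at -0.79. The other falls were Ddit4l, given above, and Ddit3 (-0.22), named after its values were seen, a call lost without Hdac4HET replicate 2 or 5.

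Circadian clock genes fell in 11 of 20 cases and rose in 2. On the Dble::R6/2 arrays Dbp measured 9.12, 9.24 and 9.41 (lowest, median and highest), and on the Hdac4HET arrays it measured 10.22, 10.47 and 10.61. The output factor Dbp lay at 44% of the Hdac4HET level with narrow, separated groups (adjusted p = 1.63e-10). Bhlhe40 lay at 50.4% of the Hdac4HET level and Hlf at 57.2%, and Cry1, a repressor of the clock, rose 1.81-fold. Csnk1d, a kinase of clock proteins, named after its values were seen, was the other member that rose (0.39). The time of day of dissection was not given in the sources used here.

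Growth, ribosome and energy genes had medians between -0.07 and 0.12. Cell cycle genes rose in 8 of 29 cases (27.6%) and fell in 3 (10.3%), beside 18.3% and 11.7% of all genes, with a median of 0.09. The largest rises were those of Cks2, Cks1b and Tpx2, a spindle protein (3.22-fold, no overlap). The members that fell were the cyclins Ccnd1 (-0.77) and Ccnb2 (-0.37) and the mitotic kinase Plk1 (-0.32), and the proliferation marker Mki67 (-0.17) did not pass; Ccnb2, Plk1 and Mki67 were named after their values were seen. Of 18 p53 targets and growth arrest genes 5 rose (27.8%) and 6 fell (33.3%), beside 18.3% and 11.7% of all genes, the rises being those of the proapoptotic Pmaip1 (0.81) and Bbc3 (0.21), the cell cycle inhibitor Cdkn1a (0.48), Trp53inp1 (0.40) and Sesn1 (0.18), all but Pmaip1 named after their values were seen, with the damage-induced Gadd45a and Gadd45b at -0.65 and -0.66. With single arrays left out 2 to 5 of them rose, 2 without Hdac4HET replicate 1 or 6 or Dble::R6/2 replicate 2 or 5 and 3 without Hdac4HET replicate 3 or Dble::R6/2 replicate 6 or 7. Sesn1 lost its call without any of 13 arrays, Bbc3 of 9 and Cdkn1a of 5. Without the arrays with high Ttr, 1 rose and 1 fell. Ribosomal protein genes rose in 12 of 30 cases (40%) and fell in 1 (3.33%), beside 18.3% and 11.7% of all genes. Rpl22 and Rpl6 lay at 0.27 and 0.27, and Rpl12 was the member that fell (-0.40). Without the arrays with high Ttr, 3 rose and none fell. Oxidative phosphorylation genes rose in 7 of 47 cases (14.9%) and fell in 3 (6.38%), beside 18.3% and 11.7% of all genes. The falls were those of Ndufs8 (-0.18), Sdhc (-0.17) and Atp5d (-0.17), named after their values were seen. The call was lost without any of 6 single arrays for Ndufs8, 10 for Sdhc and 13 for Atp5d, and all 3 were lost without Hdac4HET replicate 2 or 4 or Dble::R6/2 replicate 7. The largest rise, in the succinate dehydrogenase subunit Sdha, was 0.24. Of 5 replication-type histone genes H1f2 rose 1.73-fold, and the 4 others did not pass.

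**Figure D2:**
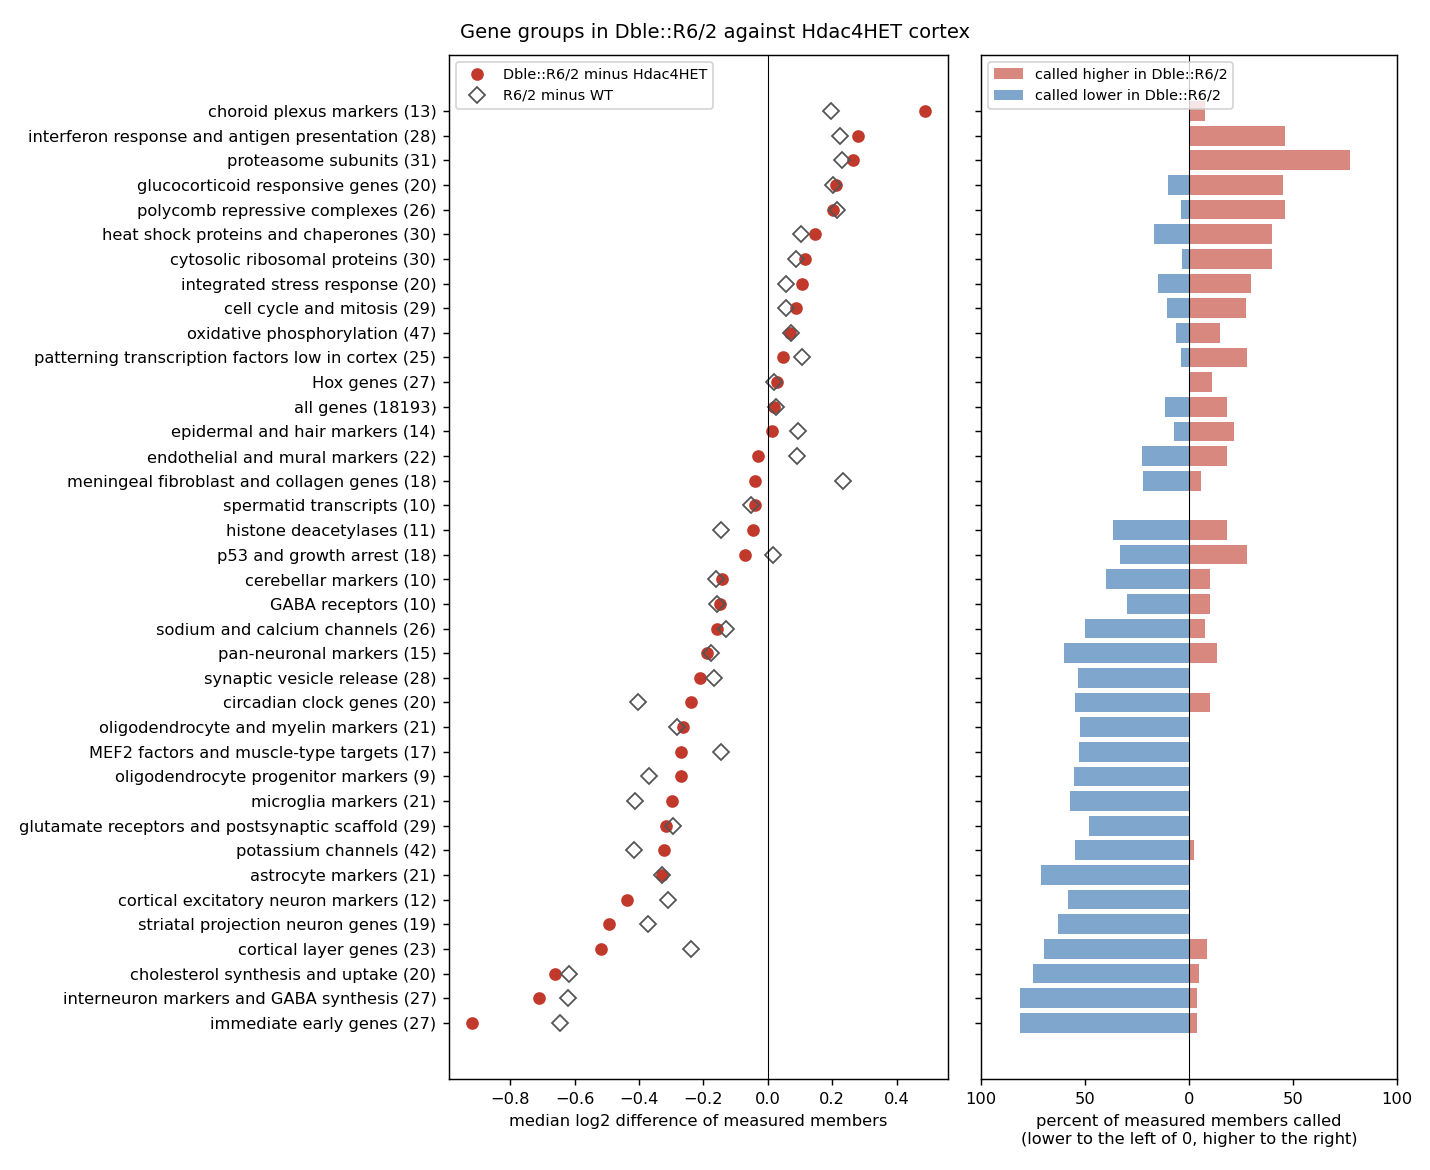
Left, median log2 difference of the measured members of each gene group (number in brackets) in Dble::R6/2 minus Hdac4HET (filled circles) and R6/2 minus WT cortex (open diamonds); right, percent of members called higher or lower in Dble::R6/2 than in Hdac4HET cortex. Immediate early genes have the lowest median (-0.92) and choroid plexus markers the highest (0.49), while the median of all genes is 0.02.

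Glial markers also fell in Dble::R6/2 cortex. Of 21 astrocyte markers 15 fell (71.4%) and none rose (median -0.33). Levels of Slc7a10 on the 9 Dble::R6/2 arrays had a lowest value, a median and a highest value of 6.47, 7.05 and 7.36, against 7.93, 8.06 and 8.24 on the 8 Hdac4HET arrays. Slc7a10, an astrocytic serine transporter, lay at 47% of the Hdac4HET level (adjusted p = 2.72e-07), Aldh1l1, a folate enzyme that marks astrocytes, at 56.6%, the bicarbonate transporter Slc4a4 at 59.4% and the receptor Ntsr2 at 65%, each separated. Gfap, which reactive astrocytes raise and which was named after its values were seen, differed by 0.10 ± 0.19 and did not pass. Of 21 microglia markers 12 fell and none rose (median -0.30). Levels of Cd68 were 5.13, 5.39 and 5.66 (lowest, median and highest) in Dble::R6/2, against 5.76, 6.11 and 6.48 in Hdac4HET mice. Cd68, a lysosomal protein, lay at 58.6% of the Hdac4HET level (adjusted p = 1.20e-05), and the purine receptor P2ry13 at 57.9%, both separated, whereas P2ry12 (49.9%) and Gpr34 (56.5%) overlapped.

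Myelin genes followed. Of 21 oligodendrocyte markers 11 fell and none rose (median -0.26), with Ugt8a, which makes the main myelin lipid, at 49.2% of the Hdac4HET level and the hydroxylase Fa2h at 67.4%, both without overlap. Opalin lay at 56.9% of the Hdac4HET level and Pllp at 60%. Of 9 progenitor markers 5 fell, among them Gpr17 (57% of the Hdac4HET level), Cspg5 (77.9%), Ptprz1 (73%) and Sox6 (71.3%). The fifth was Bcas1 (-0.26), named after its values were seen, whose call was lost without any of 12 single arrays. Endothelial and mural markers went both ways, with 4 rises (18.2%) and 5 falls (22.7%) of 22, beside 18.3% and 11.7% of all genes. The barrier transporters Abcg2, Mfsd2a and Slc2a1 rose by 0.59, 0.50 and 0.50, and the smooth muscle actin Acta2 fell by 0.64. The other rise was Slco1a4 (0.27) and the other falls were Itm2a (-0.41), Tagln (-0.40), Tie1 (-0.35) and Cdh5 (-0.20), named after their values were seen. The call of Cdh5 was lost without any of 13 single arrays. The mean astrocyte marker level per array spanned 9.52 to 9.66 in Dble::R6/2 and 9.87 to 10.05 in Hdac4HET mice. For microglia it spanned 7.08 to 7.51 in Dble::R6/2 and 7.47 to 7.86 in Hdac4HET mice. For oligodendrocytes it spanned 8.61 to 8.99 in Dble::R6/2 and 9.03 to 9.19 in Hdac4HET mice. The pan-neuronal mean spanned 11.15 to 11.37 in Dble::R6/2 and 11.30 to 11.55 in Hdac4HET mice, so only the microglial and pan-neuronal ranges of these 4 overlapped. Their part in the falls of other genes was not tested.

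Tissue that lies beside the cortex varied between arrays. Choroid plexus markers had a median of 0.49 over 13 genes, but only Sostdc1 passed (1.25 ± 0.43, adjusted p = 0.0378), and it lost the call without any of 8 single arrays. For Ttr, the lowest, median and highest levels were 8.52, 12.46 and 13.93 in Dble::R6/2 and 8.94, 10.08 and 12.20 in Hdac4HET mice. Ttr overlapped widely and did not pass (adjusted p = 0.211). The mean choroid level spanned 4.23 to 6.55 in Dble::R6/2 and 4.33 to 4.91 in Hdac4HET mice, and Otx2, a defining factor, had a median of 3.35 in Dble::R6/2 and 3.29 in Hdac4HET mice, beside a lowest value of 2.04 on any array. With the 6 arrays above 12 left out, which leaves 4 Dble::R6/2 and 7 Hdac4HET arrays, 6249 probe sets were called in place of 10422, and 5784 of these were among the original calls in the same direction, while the choroid median became -0.10.

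Markers of other tissues were counted in the same way. Of 18 meningeal and collagen genes 1 rose (Col6a2, 0.53) and 4 fell, namely Lum (-0.42), Col6a1 (-0.36), Aldh1a2 (-0.36) and Slc6a13 (-0.34), the last named after its values were seen. Aldh1a2 lost its call without Hdac4HET replicate 1 or 3, and Slc6a13 without Hdac4HET replicate 5. Of 10 cerebellar markers 1 rose and 4 fell, and 2 of those 4, Pvalb and Calb1, are also interneuron genes of cortex. The other cerebellar falls were Car8 (-1.15) and Cbln1 (-0.57), and Zic2, named after its values were seen, was the member that rose (0.24). The call of Zic2 was lost without any of 13 single arrays. None of 8 pituitary or 10 spermatid genes was called on its brightest probe set, although the mean pituitary level spanned 3.95 to 4.46 in Dble::R6/2 and 4.05 to 5.91 in Hdac4HET mice. The dimmer probe sets of the spermatid gene Prm1 were called higher, by 1.08 and 0.62, as described below. Epidermal genes gave 3 rises (21.4%) and 1 fall (7.14%) of 14, beside 18.3% and 11.7% of all genes. The rises were those of Krt1 (0.43), Lor (0.34) and Krt10 (0.23), and the fall was that of Dmkn (-0.80). Lor lost its call without any of 10 and Krt10 without any of 6 single arrays. Of 3 red blood cell transcripts, 1 fell (Alas2, -0.97). The part of these tissues in the results was not tested.

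The size of the transgene effect on each array was read with probe sets chosen on other arrays, the 3010 higher and 3289 lower in R6/2 than in WT cortex with a fold change over 30%. Relative to the Hdac4HET mean, the average of the higher probe sets lay at 0.22 to 0.58 in Dble::R6/2 and -0.06 to 0.07 in Hdac4HET mice. The average of the lower probe sets lay at -0.72 to -0.21 in Dble::R6/2 and -0.16 to 0.16 in Hdac4HET mice. Every Dble::R6/2 array was thus separated from every Hdac4HET array on both measures. Dble::R6/2 replicate 1 had the smallest shift on both (0.22 and -0.21), and Dble::R6/2 replicate 2 the largest (0.58 and -0.72). Without Dble::R6/2 replicate 1, 10991 probe sets were called.

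**Figure D3:**
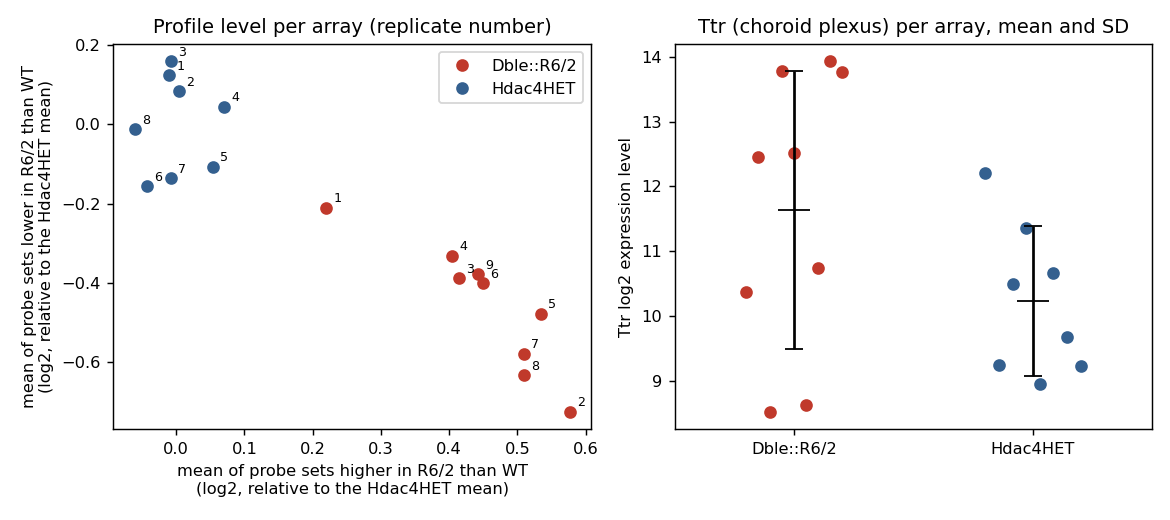
Left, mean log2 level per array, relative to the Hdac4HET mean, of the probe sets higher (horizontal axis) and lower (vertical axis) in R6/2 than in WT cortex, with replicate numbers; right, log2 level of Ttr per array with mean and SD (n = 9 and 8). Dble::R6/2 replicate 1 lies nearest to the Hdac4HET arrays at 0.22 and -0.21, and Ttr exceeds 12 on 5 Dble::R6/2 arrays and 1 Hdac4HET array.

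The effect on the Hdac4 heterozygous background was set against that on the wild-type Hdac4 background, where 12127 probe sets (26.9%) were called between R6/2 and WT mice. The comparisons share no arrays. Called in the same direction in both were 7159 probe sets, 68.7% of those called in Dble::R6/2 against Hdac4HET and 59% of those called in R6/2 against WT, and 8 were called in opposite directions. Of the 3255 called only on the heterozygous background, 2881 (88.5%) had the same sign in R6/2 against WT. Across all 45037 probe sets the log2 differences correlated at r = 0.77, a description across probe sets that share the arrays of their groups. The plot of both backgrounds shows where the leading genes lie.

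**Figure D4:**
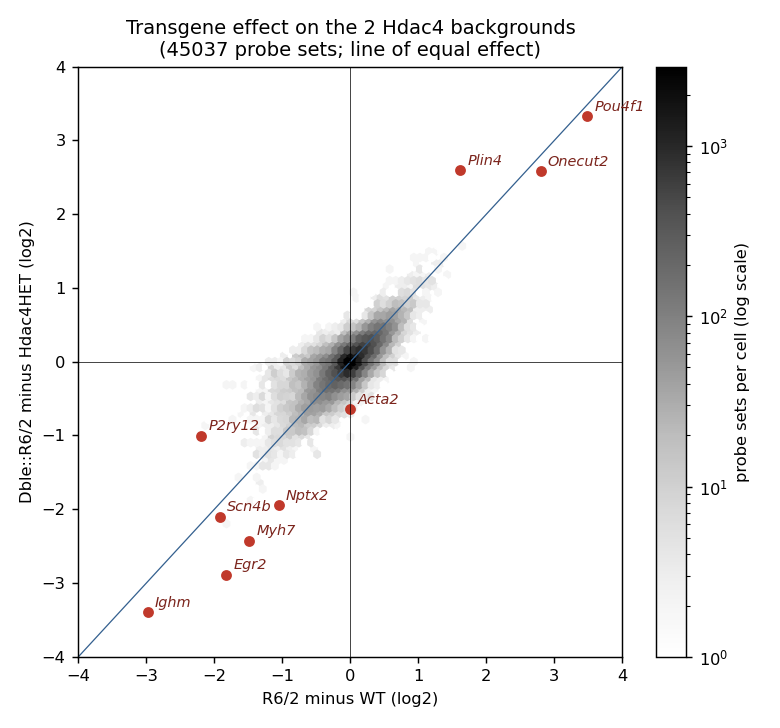
Log2 difference of Dble::R6/2 minus Hdac4HET (vertical) against R6/2 minus WT (horizontal) for 45037 probe sets, shaded by their number per cell on a log scale, with 10 named genes in red and the line of equal effect in blue. Pou4f1 and Onecut2 lie near the line at 3.33 and 2.58 on the vertical axis, and Acta2 lies below it at -0.64 on the vertical axis.

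The difference between the effects was tested directly with all 34 arrays. A single probe set of 45037 passed (0.00222%), beside 4444 (9.87%) at an unadjusted p of 0.05 or less. It was the dimmest of 3 probe sets of Prm1, a sperm protamine, named after its values were seen. It averaged 4.56 ± 0.33 in Dble::R6/2 and 3.47 ± 0.21 in Hdac4HET mice (SD, n = 9 and 8), and 2.54 ± 0.10 in R6/2 and 2.49 ± 0.10 in WT mice (SD, n = 9 and 8), a difference of effects of 1.03 (adjusted p = 9.08e-04). The R6/2 and WT levels lay near the lowest value on any array, 2.04, so the effect on the wild-type background was read near that floor. The next Prm1 probe set rose by 0.62 in Dble::R6/2 (adjusted p = 0.00725) with a difference of effects of 0.64 that did not pass (adjusted p = 0.223), and the brightest differed by -0.04 (adjusted p = 0.77), so the 3 probe sets of the gene did not move together. Without WT replicate 8, 10 probe sets passed, and without Hdac4HET replicate 3 or R6/2 replicate 1, 2 or 6, 2 passed.

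No gene named here passed this test on its brightest probe set, and the lowest adjusted p among the 230 genes named was 0.172, for Casq2. For Acta2 it was 0.192 (-0.64 in Dble::R6/2 against Hdac4HET, with a R6/2 minus WT difference of -0.0017). Not passing does not show that the effects were equal. Of 159 genes named by rule, 30 had an unadjusted p of 0.05 or less for the difference of effects, beside 8.36% of all genes. Most of these names were chosen for large differences on the heterozygous background, so their share is a description. Point estimates still differed in places. Plin4 rose by 2.59 on the heterozygous and 1.61 on the wild-type background (adjusted p of the difference = 0.363). Nptx2 differed by -1.95 on the heterozygous and -1.05 on the wild-type background (adjusted p of the difference = 0.2), and Egr2 by -2.89 on the heterozygous and -1.82 on the wild-type background (adjusted p of the difference = 0.435). In the other direction, P2ry12 differed by -1.004 on the heterozygous and -2.20 on the wild-type background (adjusted p of the difference = 0.382).

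The plot of gene groups shows the medians on both backgrounds. The immediate early genes had medians of -0.92 in Dble::R6/2 against Hdac4HET and -0.65 in R6/2 against WT, and cortical layer genes of -0.52 in Dble::R6/2 against Hdac4HET and -0.24 in R6/2 against WT. Other groups had the larger median on the wild-type background, as potassium channels with -0.32 in Dble::R6/2 against Hdac4HET and -0.42 in R6/2 against WT, circadian clock genes with -0.24 in Dble::R6/2 against Hdac4HET and -0.40 in R6/2 against WT, and microglia markers with -0.30 in Dble::R6/2 against Hdac4HET and -0.41 in R6/2 against WT. Over the 6299 probe sets called in R6/2 against WT with a fold over 30%, the median ratio of the effect in Dble::R6/2 to that in R6/2 was 0.74, a description of probe sets chosen for their size in R6/2. The meningeal and collagen genes had medians of -0.04 in Dble::R6/2 against Hdac4HET and 0.23 in R6/2 against WT, and 11 of 18 members had an unadjusted p of 0.05 or less for the difference of effects, beside 8.36% of all genes, and none passed after adjustment. Casq2, a calcium buffer of muscle in the MEF2 group, was named after its values were seen. It was among the 8 probe sets called in opposite directions, at -0.43 in Dble::R6/2 against Hdac4HET and 0.25 in R6/2 against WT. Its difference of effects did not pass (adjusted p = 0.172).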

How the data were processed

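Cortical RNA of 34 arrays (WT 8, Hdac4HET 8, R6/2 9, Dble::R6/2 9) was labelled with the 3′ IVT Express kit and hybridised to Affymetrix mouse genome arrays. The values used are log2 expression levels per probe set as deposited by the authors, who left out arrays by a quality measure. How background, normalization and summary over probes were handled is not stated in the sources used here. Array data carry no read depth, so the number of arrays limits the precision.

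Groups follow the genotype labels. The 45037 probe sets were tested with lmFit and eBayes (limma 3.58.1, R 4.3.3) on the 17 arrays compared, with Benjamini-Hochberg adjustment and a threshold of 0.05, and the difference of effects was tested with all 34 arrays. Platform symbols were updated through RefSeq (GRCm38.p6): 34945 probe sets had 1 symbol, 932 several and 9160 none, and 34741 matched the RefSeq table. Each of 18193 genes is shown by its probe set with the highest mean over 34 arrays. Of 938 gene list entries 842 were measured. Motifs were searched in the 250 bases before the start. The tests were checked on simulated data. Figures were drawn with matplotlib 3.10.9.

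The text names the 10 calls with the largest rise and the 10 with the largest fall, up to 4 called members of each list, the histone deacetylases, Htt, calls for the difference of effects and the 5 largest statistics each way. Other genes named were chosen outside this rule. Members and lists were chosen with earlier results of these data known. Alternatives were quantile normalization, a filter on dim probe sets, array weights, other variance models, sex, a replicate block, a residual principal component, a fit of 4 genotypes, the methods' t-test, the mean of a gene's probe sets, each sex alone and each replicate left out. Leaving out the 6 arrays with Ttr above 12 was added after seeing the data.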

Additional observations from a re-analysis of the deposited data

Results flagged for a closer look

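In 26 of 322 groups of 8 or 9 arrays (8.07%), covering 159 genes and the mean levels of the R6/2 against WT probe sets, the highest or lowest array stood apart from the rest of its group. Chance gives about 1 in 20. Dble::R6/2 replicate 1 accounted for 6 of these cases and Hdac4HET replicate 7 for 5. All values are log2 levels.

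Dble::R6/2 replicate 1 was lowest for Plin4 (6.20) and the polycomb partner Phf1 (8.00), and highest for Hdac5 (9.34), the vesicle priming gene Unc13a (9.07) and the myelin gene Pllp (8.42). It was also lowest for the mean of probe sets higher in R6/2 than in WT cortex (0.22). For Plin4, Phf1, Hdac5, Unc13a, Pllp and that mean it lay on the Hdac4HET side of its group. Other single Dble::R6/2 arrays were lowest for Hdac3 (8.97), Nr4a1 (9.08), Grm3 (9.499), Kcnj9 (7.58), Rgs4 (8.82), Bhlhe40 (8.67), Rps27 (6.37) and Nefl (11.38), and highest for Cyp51 (7.72) and Aldh1l1 (8.81).

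Hdac4HET replicate 7 was lowest for Lamp5 (11.50), the vesicle calcium sensor Syt2 (7.52), Pdyn (6.00) and Tpx2 (3.35), and highest for Grm4 (7.69). Hdac4HET replicate 6 was lowest for Ighm (6.80) and Hdac8 (5.36). Single Hdac4HET arrays were highest for Psmc2 (10.90), Calb1 (11.36) and Opalin (8.86).

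The transgene effect on the dimmest Prm1 probe set differed between the Hdac4 backgrounds by 1.03 in the direct test (adjusted p = 9.08e-04, limma). Its mean levels in R6/2 (2.54) and WT mice (2.49) lay near the lowest value on any array, 2.04.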

How the results depend on the processing

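Leaving out each array in turn gave 9435 to 10991 probe sets called in Dble::R6/2 against Hdac4HET, 4678 to 5287 with a fold over 30%, 10767 to 12721 in R6/2 against WT, 6748 to 7589 shared and 1 to 10 for the difference of effects. Averaging each gene's probe sets gave 5493 genes called and 1870 with a fold over 30%, since genes and not probe sets were then tested. Females alone by Xist, 3 Dble::R6/2 and 2 Hdac4HET arrays, gave 96 for both counts, and males alone 8890. Without the 6 arrays with Ttr above 12, an alternative chosen after seeing the data, 6249 were called. The difference of effects had 0 calls among the brighter 50% of probe sets, where the Prm1 probe set was not tested, and 3 with array weights; the cause of the 3 was not tested.

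Of the 200 called genes named in the text, 179 kept the call whichever single array was left out, and 40 lost it without the 6 arrays with high Ttr, which leaves fewer samples. The difference of Hdac4, which was not called, changed sign with quantile normalization (-0.0167), labelled sex (-0.00183), the average of its probe sets (-0.0643), females alone (-0.0569) and without the Ttr-high arrays (-0.0504), and ran from -0.0235 to 0.0360 with single arrays left out. That of Hdac6 changed sign with array weights (0.00110) and males alone (0.0237), and ran from -0.0197 to 0.0220 with single arrays left out. With females alone, Htt (-0.000458) and Btg2 (0.0723) changed sign. None of these reversed values passed the test.

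The replicate number as a block gave 8535 probe sets called, and 19 of these 200 genes lost the call, among them Hdac5, Hdac9, Sostdc1, Jun, Phox2a, Ndufs8, Sdhc, Atp5d, Lor and Krt10. Only 3 of 8 same-numbered pairs deviated together, with correlations of -0.35 to 0.34 over the 8 pairs. Whether samples with the same number shared a litter or a batch was not tested. The number of arrays limits what small differences could be detected.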
